A study of Mus musculus with 18 samples.

Results

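Keratins and the proteins of the cornified envelope were followed in RNA from mouse forepaws, as a readout of the skin and hair held in whole paws that were sampled for arthritis. Members were chosen by gene symbol: every gene named Krt followed by a digit, every keratin-associated protein (Krtap), late cornified envelope (Lce) and small proline-rich (Sprr) gene, and Lor, Ivl, Hrnr, Flg2 and Dsg1a. This gave 142 of the 18585 genes in the table. The mice were C57BL/6 and either wild type (WT) or Sema3b-/-, which lack the secreted guidance protein semaphorin 3B. Controls numbered 4 libraries of each genotype, and arthritis 5 of each. The labels give the tissue as forepaw in all 18 libraries and the treatment as control or arthritis. Titles of all control libraries begin with MI, and those of no arthritis library do. What this prefix stands for is not given. Any difference in sampling that goes with it cannot be told apart from arthritis in these comparisons. The sources used here do not give the agent that induced arthritis, its duration or the age of the mice. Nor do they say whether each library is a separate animal, so a p-value reflects only how much these libraries varied.

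The epidermis renews itself from a basal layer. Basal keratinocytes make Krt5 and Krt14, and cells that leave this layer switch to Krt1, Krt10 and Krt2. In the outer layers loricrin, hornerin and the Lce and Sprr proteins are crosslinked under the membrane into the cornified envelope, the outer barrier of dead cells. Krt6a, Krt6b and Krt16 are made in hair follicles and in footpad and nail epithelium, and rise in wounded or inflamed interfollicular skin. Hair is built from other genes: Krt71, Krt25 and Krt73 form the inner root sheath that moulds the growing shaft, Krt86, Krt81 and Krt33b are cortical keratins of the shaft, and Krtap proteins embed the shaft keratins in a matrix. Claws are built from several of the same hard keratins, so the shaft list also covers nail.

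Members were sorted into layers by known site of expression. The basal list held 3 members, the suprabasal list 8, the single cornified envelope genes 5, Lce 20, Sprr 13, the stress keratins 5, keratins of simple and mucosal epithelia 10, inner root sheath and companion layer keratins 10, hair and nail shaft keratins 15 and Krtap 52; Krt222 was left in a list of its own. The first 5 of these lists were taken as interfollicular skin, and the last 3 named lists as hair, while stress, simple and mucosal keratins belong to neither sum. In all, 119 members passed the filter for testing (10 or more normalized counts in at least 4 libraries), and 23 did not, among them Krt222 and 6 of the 13 Sprr genes. Values are the authors' normalized counts, that is, counts of 3′ tags divided by a size factor for each library. As tags come from the 3′ end of each RNA, these values are not scaled by gene length.

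Depth ran from 1732783 to 19464892 reads per library. Sema3b had 23.7 to 67.5 normalized counts in the WT libraries and 0 to 7.22 in the Sema3b-/- libraries. Sex was read from Xist and Y-linked genes, as the labels do not give it: the 4 WT control libraries were female, WT arthritis replicates 2 to 5 were male, and Sema3b-/- control replicates 2 and 3 and Sema3b-/- arthritis replicate 5 were male. The deposited column for replicate 5 of Sema3b-/- arthritis carries the letters Ct in its name, against a label of arthritis, and the label was followed. The 10 muscle markers, all of them detected, took 1.36 to 1.75% of normalized counts in the WT controls and 1.36 to 2.65% in the Sema3b-/- controls. In arthritis they took 0.128 to 2.01% (WT) and 0.138 to 1.14% (Sema3b-/-). The 6 fibroblast markers took 1.20 to 5.93% in 16 libraries, and 9.90% and 10.5% in Sema3b-/- control replicates 2 and 3.

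The amount of skin RNA varied widely among the libraries of every group but WT control. Members together took 3.05 to 4.13% of normalized counts in WT control and 1.92 to 7.51% in Sema3b-/- control. In WT arthritis the 5 libraries held 0.982%, 3.40%, 0.0803%, 0.464% and 1.54%, and in Sema3b-/- arthritis 1.98%, 0.0920%, 3.44%, 2.02% and 1.47%. WT arthritis replicate 3 and Sema3b-/- arthritis replicate 2 stood apart with almost no skin RNA, and they also held the least muscle marker RNA (0.128% and 0.138%). Sema3b-/- control replicate 4 held the most member RNA of the 18. The share of all members was 93.6 times higher in the highest than in the lowest library, and that of single layers 44.2 times (Lce) to 291 times (shaft keratins). In whole-paw RNA, fewer skin cells and less RNA per skin cell cannot be told apart, and the part of the dissection in these differences was not tested.

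**Figure D1:**
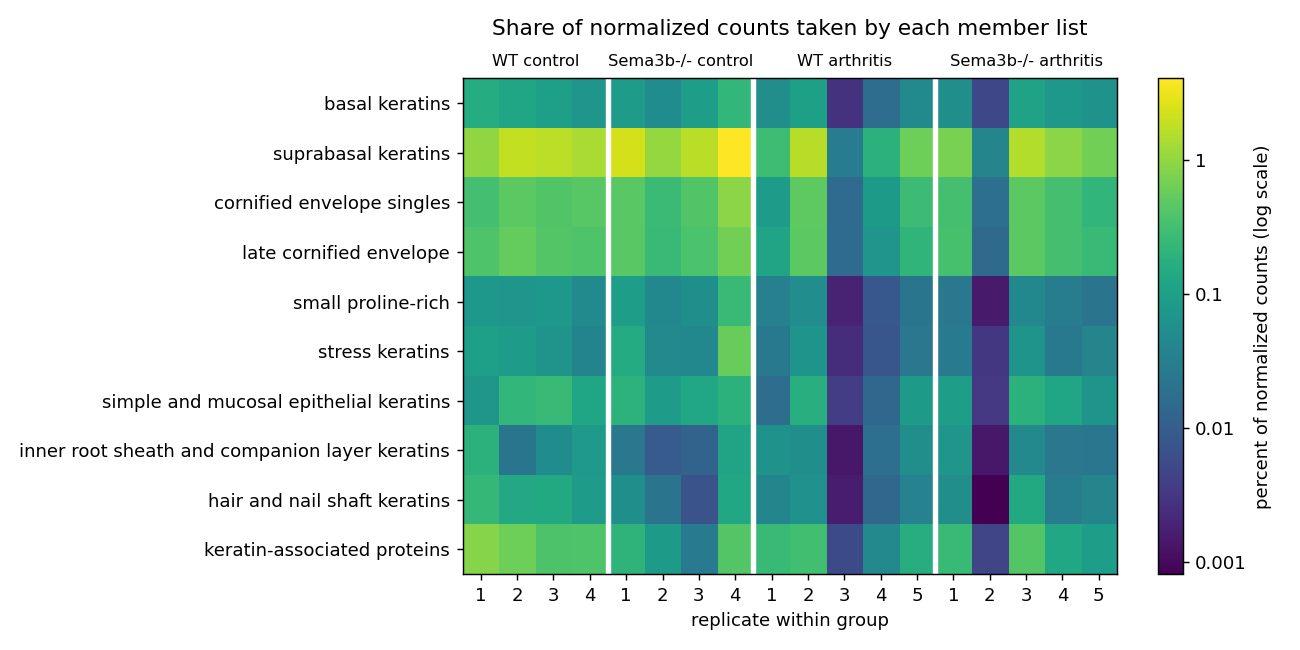
Share of normalized counts (colour, log scale, percent) taken by each list of members (rows) in each library (columns, by group and replicate). WT arthritis replicate 3 and Sema3b-/- arthritis replicate 2 are dark in every row, and Sema3b-/- control replicate 4 is bright in the suprabasal and stress keratin rows.

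The differentiated layers supplied most of this RNA. Suprabasal keratins took 1.49 ± 0.389% of normalized counts in WT control (SD, n = 4), single cornified envelope genes 0.410 ± 0.0657%, Lce 0.430 ± 0.0772%, Krtap 0.556 ± 0.222%, shaft keratins 0.152 ± 0.0604% and basal keratins 0.111 ± 0.0368%. Over all 18 libraries the most abundant member was Krt2, a keratin of the upper spinous and granular layers, with a mean of 38862 normalized counts. Krt1 and Krt10, which pair to form the filaments of spinous cells, had means of 26451 and 22754. Loricrin (Lor), the main protein of the envelope, had a mean of 11652, and the filaggrin-like protein hornerin (Hrnr) 10583. The basal keratin Krt14 had a mean of 4214. The leading genes of the other lists were Lce1f (3621), Sprr1b (2588), Krt6a (2205), Krtap8-1 (3202), the root sheath keratin Krt71 (1178) and the shaft keratin Krt86 (691). The list of simple and mucosal keratins did not behave as its name says: Krt24, a type I keratin, made up nearly all of it with a mean of 8304, while Krt18, the next, had a mean of 31.8.

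Krt9 marks thick palm and sole skin, and its level set the libraries apart in another way. Relative to Krt2, Krt9 was at 0.76% and 0.93% in WT control replicates 1 and 4 and at 0.36% and 0.52% in WT arthritis replicates 1 and 4. In the other 14 libraries it was at 2.09 to 17.4%. The low values were thus in 4 of the 9 WT libraries and in none of the 9 Sema3b-/- libraries. WT control replicate 1 and WT arthritis replicate 1 also had the highest root sheath keratin RNA, at 9.98% and 10.9% of interfollicular member RNA, where the other 16 libraries had 0.47 to 4.98%. Krt8 and Krt18, a pair found in simple epithelia, sweat glands and Merkel cells, varied as well. Krt8 was at 1.11, 80.3, 63.8 and 19.6 normalized counts in WT control and at 1.48, 27.9, 0, 0.851 and 18.4 in WT arthritis. Krt8 was at 72.8, 8.94, 29.7 and 32.4 in Sema3b-/- control and at 19.4, 0, 51.3, 62.7 and 42.4 in Sema3b-/- arthritis. The value of 0 there was in replicate 2, where all members held only 0.0920% of normalized counts. These Krt8 values are not relative to Krt2, and whether Krt8 followed Krt9 was not tested.

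In WT arthritis, members were lower than in WT control by their medians, but no single member passed the test. With limma on log2(normalized count + 1) and Benjamini-Hochberg adjustment, 0 of 119 tested members passed an adjusted p of 0.05, where 4.21% of all 13809 genes tested did. At an unadjusted p under 0.05 there were 21 members, all lower (all genes, either direction: 21.2%). edgeR on the recovered reads called 0 members (5.37% of all genes), and DESeq2 called 1, Krtap13, lower (9.26% of all genes). The median log2 fold change was -1.80 over the tested members and -0.02 over all genes, and 116 of 119 were below 0. Single values were imprecise: the median standard error was 1.21 for members and 0.27 for all genes. Without WT arthritis replicate 3, the median of members was -1.06, and with sex as a term it was -1.16. All WT controls were female, and of the WT arthritis libraries only replicate 1 was. Within WT, sex and arthritis can thus hardly be told apart, and the sex term leans on that library and on the Sema3b-/- groups.

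Layer by layer, the medians in WT arthritis were -1.74 for basal, -2.19 for suprabasal, -1.34 for single envelope, -1.74 for Lce, -0.95 for Sprr, -2.09 for stress, -1.21 for root sheath, -2.61 for shaft keratins and -2.12 for Krtap. Loricrin was at 12068, 14838, 11719 and 13958 normalized counts in WT control and at 1916, 11693, 630, 2600 and 6892 in WT arthritis. The groups did not overlap, though replicate 2 of the arthritis group lay just under the lowest control. Its log2 fold change was -2.11 (SE 0.86, limma adjusted p = 0.174). Krt14 was at 3154 to 6693 in control and 132 to 6230 in arthritis (log2 fold change -1.84, 95% interval -4.06 to 0.38).

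The members with the lowest p in this comparison were high-cysteine Krtap genes of the chromosome 11 cluster. Krtap4-8 was at 63.0, 55.9, 34.7 and 27.3 normalized counts in WT control and at 4.44, 13.5, 0, 0 and 7.61 in WT arthritis (log2 fold change -3.57, SE 1.08, limma adjusted p = 0.0684). Krtap4-6 (-3.29, SE 1.10, adjusted p = 0.105) and Krtap4-9 (-2.73, SE 0.95, adjusted p = 0.118) fell short of the test as well. Each of the 3 was lower in every WT arthritis library than in every WT control library. In all, 17 members (14.3%) were lower without overlap, namely Lor, 4 shaft keratins and 12 Krtap genes, where 4.71% of all genes were. No member was higher without overlap (5.82% of all genes).

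In Sema3b-/- arthritis the same test called 0 of 119 members against Sema3b-/- control, where 12.4% of all genes passed. There were 8 members at an unadjusted p under 0.05 (all genes: 28.5%), 7 of them lower. edgeR called 0 (11.8% of all genes), and DESeq2 called 7, all lower: Krt6b, Krt10, Sprr1b, Krt6a, Krt16, Sprr2d and Lce3f. Of all genes DESeq2 called 16.1%, a larger share than among members. The median log2 fold change of members was -0.77, and it turned to 0.11 without Sema3b-/- arthritis replicate 2 and moved to -0.14 without Sema3b-/- control replicate 4 and to 0.01 without the arthritis libraries whose titles do not begin with Joint. Interfollicular members had a median of -1.42, with 34 of 38 below 0, and hair members a median of -0.44, with 49 of 70 below 0. By layer, medians were lowest for the stress keratins (-2.29) and Sprr (-2.03), followed by suprabasal keratins (-1.76), basal keratins (-1.28), Lce (-1.23) and single envelope genes (-1.09).

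Sprr1b, a crosslinked envelope precursor, was at 5029, 2499, 3546 and 14460 normalized counts in Sema3b-/- control and at 455, 57.8, 1925, 1594 and 834 in Sema3b-/- arthritis. No arthritis library reached the lowest control (log2 fold change -3.11, SE 1.08, limma adjusted p = 0.0716). Krt10 was at 44177, 21232, 29964 and 112036 in control and at 9876, 552, 19740, 12144 and 7882 in arthritis, also without overlap (-2.73, SE 1.07, adjusted p = 0.106). Krt6b was at 4151, 1042, 778 and 17197 in control and at 106, 74.9, 1145, 335 and 781 in arthritis (-3.20, SE 1.12, adjusted p = 0.0740), and here the groups overlapped. The low-count Sprr2k was at 5.59 to 62.4 in control and 0 to 6.03 in arthritis, with overlap (-2.48, SE 0.92, adjusted p = 0.0823). Sprr1b, Krt10 and Lce3e were the 3 members (2.52%) lower without overlap, where 6.11% of all genes were, and no member was higher (all genes 7.13%).

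**Figure D2:**
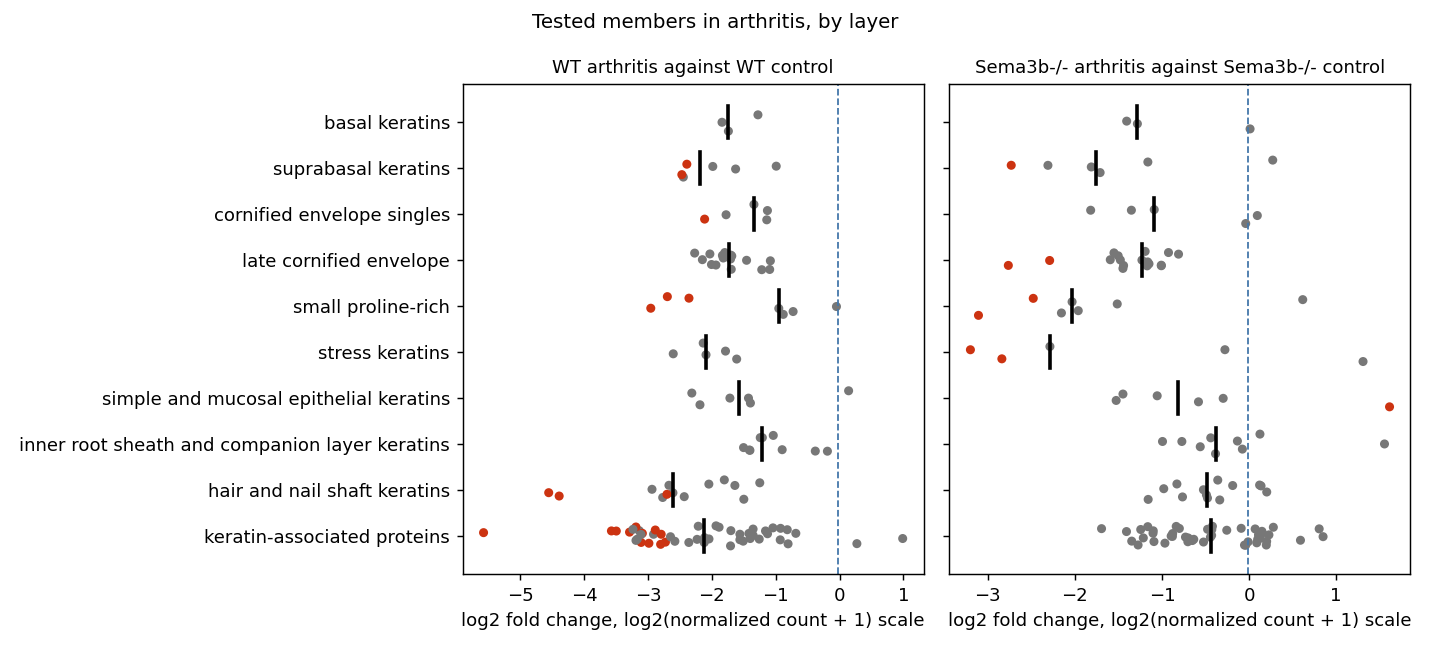
Log2 fold change (x axis, log2(normalized count + 1) scale) of each tested member in arthritis against control, by layer (rows), in WT (left) and Sema3b-/- (right). Points are members, red where the unadjusted p is under 0.05; black bars are layer medians and the dashed line is the median of all genes. Layer medians in WT lie between -2.61 and -0.95, and the hair layers in Sema3b-/- lie nearer 0.

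Among control paws, the WT and Sema3b-/- libraries differed in the balance of RNA from the hair lists, which also cover nail, and interfollicular RNA. The log2 ratio of summed hair to summed interfollicular members was -0.60, -1.98, -2.27 and -2.06 in WT control and -3.57, -3.89, -5.82 and -3.21 in Sema3b-/- control. The groups did not overlap, and the means were -1.73 ± 0.764 and -4.12 ± 1.16 (SD, n = 4 each), a difference of -2.39. In WT arthritis the ratio was -0.66, -2.71, -2.97, -2.25 and -2.24, and in Sema3b-/- arthritis -1.96, -3.50, -2.10, -3.21 and -2.95. These groups overlapped, with means of -2.17 ± 0.898 and -2.74 ± 0.681 (SD, n = 5 each). As lists chosen with results known, these ratios are given without a test.

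By group means, hair members were lower and interfollicular members higher in Sema3b-/- control. Hair members took 0.557 to 1.27% of normalized counts in WT control, and 0.287%, 0.113%, 0.0457% and 0.659% in Sema3b-/- control. Interfollicular members took 1.92 to 3.04% in WT control, and 3.40%, 1.67%, 2.58% and 6.10% in Sema3b-/- control. Sema3b-/- control replicates 2 and 3, with the least hair RNA, were the male libraries and held the most fibroblast marker RNA. The female Sema3b-/- controls, replicates 1 and 4, had ratios of -3.57 and -3.21, and the WT controls, all female, had -2.27 to -0.60. The control groups did not overlap without the most abundant member of each side, without the Krtap genes, or with the mean of log2 values in place of sums. The separation lay in the shaft and matrix lists, and the shaft list also covers nail. Krt36, a keratin of nail and shaft, was at 910, 957, 1164 and 112 normalized counts in WT control. In Sema3b-/- control it was at 93.1, 212, 10.7 and 446, which overlapped. The part of claw in the hair sum was not tested. As percent of interfollicular RNA, shaft keratins were at 12.2, 4.56, 5.21 and 3.86 in WT control and at 1.66, 1.27, 0.27 and 2.16 in Sema3b-/- control. Krtap were at 44.0, 20.1, 13.7 and 16.8 against 6.06, 4.92, 1.02 and 6.71. Root sheath keratins, made in the follicle, overlapped, at 9.98, 0.72, 1.86 and 3.31 against 0.71, 0.56, 0.47 and 1.92. The sources used here do not say at which phase of the hair cycle the mice were sampled. The part of age or sex in the ratio was not tested, and the sex term given below belongs to the gene-by-gene fits.

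**Figure D3:**
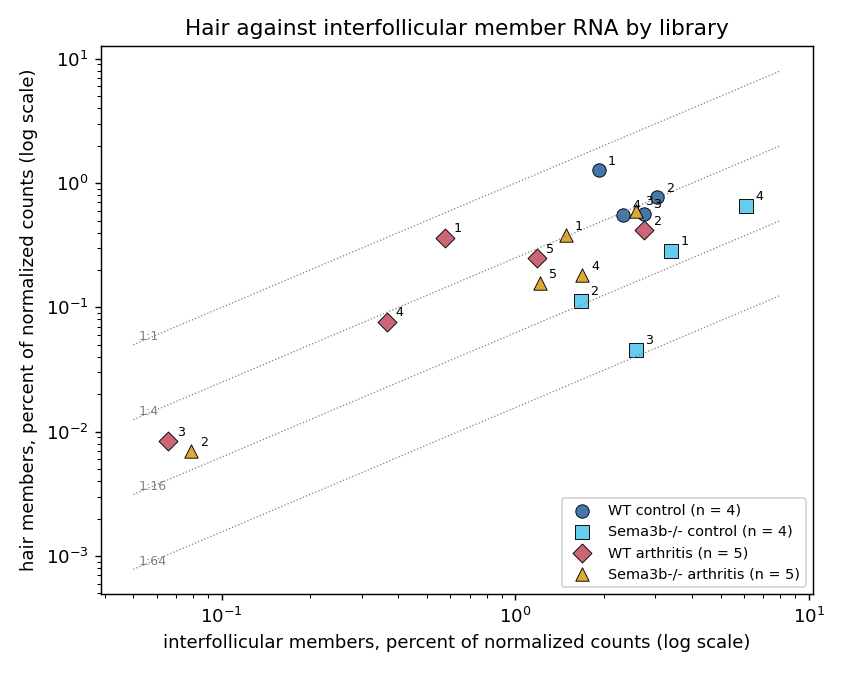
Hair members (y axis) against interfollicular members (x axis), each as percent of normalized counts on a log scale, with 1 point per library numbered by replicate and dotted lines of equal ratio (hair to interfollicular). Interfollicular RNA was 9.27 to 56.5 times hair RNA in the 4 Sema3b-/- control libraries and 1.51 to 4.82 times in the WT controls, and WT arthritis 3 and Sema3b-/- arthritis 2 lie at the lower left.

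Gene by gene, the fit called 0 of 119 members between Sema3b-/- control and WT control (0.0145% of all genes passed). An unadjusted p under 0.05 was reached by 3 members (all genes: 5.87%), and edgeR and DESeq2 called 0 each (0.0145% and 0.0362% of all genes). Of the 70 tested hair members, 68 had values below 0, with a median of -1.74, while interfollicular members had a median of 0.05. With sex as a term the median over hair members was -0.99. The 3 members with the lowest p were Krt4, a mucosal keratin at 0 to 14.5 normalized counts in these groups (log2 fold change -2.07, SE 0.69, adjusted p = 0.793), Krtap4-8 (-2.98, SE 1.14, adjusted p = 0.805) and Sprr2k (2.37, SE 0.97, adjusted p = 0.805).

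Without overlap, 6 members (5.04%) were lower in Sema3b-/- control, all Krtap genes: Krtap22-2, Krtap7-1, Krtap6-2, Krtap21-1, Krtap1-5 and Krtap20-2. Of all genes, 2.13% were lower in this way. Krtap22-2, a small matrix gene of the chromosome 16 cluster rich in glycine and tyrosine, was at 3242, 3194, 1781 and 1663 in WT control and at 1048, 422, 28.5 and 1229 in Sema3b-/- control. The log2 fold change was -2.72 (SE 1.88, limma adjusted p = 0.907), and its interval ran from -6.74 to 1.29. Krtap7-1, of the same kind, was at 825 to 3013 in WT control and 66.5 to 700 in Sema3b-/- control. No member was higher without overlap (2.07% of all genes). By contrast the root sheath keratin Krt71, at 4738, 511, 1226 and 1714 against 518, 185, 235 and 3414, overlapped.

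Between Sema3b-/- arthritis and WT arthritis, 0 of 119 members passed (0.0217% of all genes), and edgeR and DESeq2 called 0 each (0.0217% and 0.788% of all genes). An unadjusted p under 0.05 was reached by 1 member with limma (all genes: 8.97%). The median was 0.13 and the groups overlapped for every tested member (lower without overlap: 0.999% of all genes; higher: 0.775%). It was -0.75 without WT arthritis replicate 3, 1.10 without Sema3b-/- arthritis replicate 2 and -0.73 with sex as a term, so no direction was held. The members with the lowest p were Krt18 (1.75, SE 0.79, adjusted p = 0.521), Krt8 (2.03, SE 1.28, adjusted p = 0.669) and Krt9 (2.05, SE 1.30, adjusted p = 0.672). The interaction of genotype and arthritis, which tests whether arthritis shifted a gene differently in the genotypes, called 0 members and 0.0% of all genes. edgeR and DESeq2 called 0 members each (0.0% and 0.104% of all genes), and DESeq2 gave an adjusted p for 87 members. No member had an unadjusted p under 0.05 with limma (all genes: 4.80%). Krtap4-8 (3.09, SE 1.53), the nail and shaft keratin Krt36 (4.51, SE 2.27) and Krt42 (3.91, SE 2.21) had the lowest p, each with an adjusted p of 0.974.

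To see whether members changed relative to the other RNA of the epidermis, the fit was repeated with a term for the amount of skin RNA. This was the mean log2 level of 11 cell adhesion genes that are not members, among them the desmosome genes Dsp, Pkp1 and Dsc3. The term was added after the spread of skin RNA had been seen, and it assumes that the adhesion genes themselves do not shift with arthritis. That was not met by each of them. Fitted with the term, 2 of the 11 passed in WT arthritis (Jup and Cdsn, both lower) and 4 in Sema3b-/- arthritis. There the log2 fold change was -1.12 for Jup (SE 0.13, limma adjusted p = 0.000106), -0.73 for Cdsn (SE 0.13, adjusted p = 0.00166), -0.67 for Pkp3 (SE 0.18, adjusted p = 0.0253) and 0.70 for Cdh1 (SE 0.21, adjusted p = 0.0382). The share of adhesion genes called was thus above that of members, and values below are relative to the average of these genes. The term lowered the median standard error of interfollicular members from 1.06 to 0.29. In WT arthritis 0 members passed (all genes 2.58%), with 5 at an unadjusted p under 0.05 (all genes 16.6%), and the median of all members was 0.10. In Sema3b-/- arthritis 4 members passed (all genes 10.7%): Krt10, Sprr1b and Krt1 were lower and Krt23 higher. The share of members called was below that of all genes. No member passed in the other 3 comparisons (all genes 0.0145%, 0.833% and 0.0%), where 43, 6 and 14 members had an unadjusted p under 0.05 (all genes 8.38%, 15.2% and 8.51%).

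Krt10 had the lowest p of these. Per normalized count of the 11 adhesion genes, it was at 1.83, 1.83, 1.51 and 2.06 in Sema3b-/- control and at 0.896, 0.799, 0.888, 0.838 and 0.932 in Sema3b-/- arthritis. The arthritis libraries, including the one with almost no skin RNA, lay within a narrow band well below the controls. In WT the values were 1.13, 1.38, 1.23 and 1.68 in control and 0.715, 1.16, 0.789, 1.01 and 1.20 in arthritis, and the groups overlapped. With the skin term the log2 fold change was -1.31 (SE 0.19, limma adjusted p = 0.00059) in Sema3b-/- and -0.41 (SE 0.20, adjusted p = 0.313) in WT. The interaction was -0.91 (SE 0.25, adjusted p = 0.319), so a difference between the genotypes was not shown. Sema3b-/- control was itself above WT control by 0.69 (SE 0.19, adjusted p = 0.411), which did not pass.

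Sprr1b per adhesion gene count was at 0.209, 0.216, 0.179 and 0.266 in Sema3b-/- control and at 0.0413, 0.0838, 0.0866, 0.110 and 0.0986 in Sema3b-/- arthritis, again apart. In WT, Sprr1b was at 0.102 to 0.177 in control and at 0.0678 to 0.146 in arthritis, which overlapped. All Sema3b-/- controls thus lay above the WT controls for Sprr1b, but only just (0.179 against 0.177). The share of all genes set apart on this measure is not given here. Its log2 fold change with the skin term was -1.71 in Sema3b-/- (SE 0.31, limma adjusted p = 0.00267), against -0.40 in WT (SE 0.32, adjusted p = 0.585). The interaction was -1.31 (SE 0.41, adjusted p = 0.380). Krt1, the partner of Krt10, was lower by a smaller amount (-0.87, SE 0.26, adjusted p = 0.0385 in Sema3b-/-). It lost the call with sex as a term (adjusted p = 0.0815), without the 2 libraries lowest in skin RNA (0.0659), and without any 1 of 10 libraries, up to 0.127 without Sema3b-/- control replicate 2. Krt2, in contrast, had -0.22 in Sema3b-/- arthritis (95% interval -0.99 to 0.56).

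Krt23, a type I keratin of low level in this tissue, went the other way. It was at 52.6, 33.5, 29.7 and 167 normalized counts in Sema3b-/- control and at 179, 6.63, 119, 154 and 52.1 in Sema3b-/- arthritis, which overlapped. Per adhesion gene count the control values of 0.00150 to 0.00306 lay below the arthritis values of 0.00533 to 0.0162. In WT, Krt23 was at 0.00320 to 0.00692 in control and at 0.00522 to 0.0129 in arthritis, which overlapped. All Sema3b-/- controls thus lay below the WT controls for Krt23, but only just (0.00306 against 0.00320). The log2 fold change with the skin term was 1.50 in Sema3b-/- (SE 0.37, limma adjusted p = 0.0141), and 0.74 in WT (SE 0.39, adjusted p = 0.352). Without Sema3b-/- control replicate 3 the adjusted p was 0.0552, and without the arthritis libraries whose titles do not begin with Joint it was 0.0628. Krt10 and Sprr1b kept adjusted p under 0.05 in each of the 24 alternatives run on this fit.

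**Figure D4:**
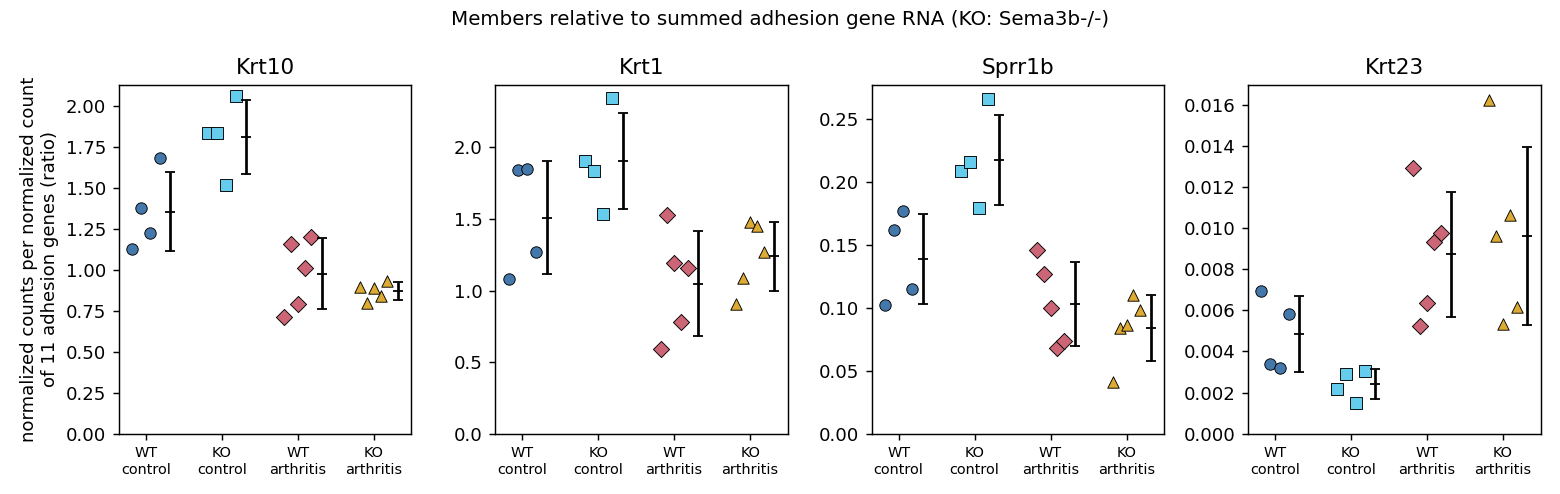
Normalized counts of Krt10, Krt1, Sprr1b and Krt23 per summed normalized count of 11 adhesion genes (y axis, ratio) by group, with 1 point per library; the bar beside each group is the mean ± SD (n = 4 for controls, 5 for arthritis; KO is Sema3b-/-). Krt10 and Sprr1b in Sema3b-/- arthritis lie below all Sema3b-/- controls, and Krt23 lies above them.

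Hair members relative to the adhesion genes had values below 0 in Sema3b-/- control. With the skin term, 68 of 70 were below 0 against WT control, with a median of -1.76. None passed over all genes, and 36 of 70 had an unadjusted p under 0.05, all of them lower (all genes, either direction: 8.38%). With sex as a further term the median was -1.38, with 28 at an unadjusted p under 0.05 (all genes 8.37%). In Sema3b-/- arthritis against Sema3b-/- control, 68 of 70 hair members were above 0, with a median of 1.20, none called and 14 at an unadjusted p under 0.05 (all genes 26.2%). With sex as a further term the median was 0.88, with 10 below 0 and 2 at an unadjusted p under 0.05 (all genes 25.8%). Without the arthritis libraries whose titles do not begin with Joint, 1 had an unadjusted p under 0.05. With a covariate over 3 epidermal lists (adhesion, envelope enzymes and barrier lipids), 1 hair member was called, Krtap24-1. The shares of all genes in these last alternatives are not given here. With the adhesion term 10.7% of all genes were called in Sema3b-/- arthritis, so 1 of 70 is not read as a result. Both comparisons use the Sema3b-/- control libraries. Hair members varied together from library to library, and their lists were chosen with earlier results known. Counts of hair members, here and without the skin term, are therefore not independent observations and are not read as a test.

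Promoters of 3 of these genes are printed because the results above turn on them. They are the 2 members that were called lower in each alternative with the skin term (Krt10 and Sprr1b) and the leading Krtap gene among those lower in Sema3b-/- control (Krtap22-2). RefSeq windows (GRCm38.p6) were matched for 116 of the 142 members, 117 windows in all, each from 250 bases before to 50 after the start. The 150 bases before the start are given 5′ to 3′ on the gene's strand, the minus strand for all 3, with TATAAA and TGANTCA matches (either strand) in capitals. Krt10 lies at chr11:99389365-99389514, Sprr1b at chr3:92438780-92438929 and Krtap22-2 at chr16:89010760-89010909.
Krt10: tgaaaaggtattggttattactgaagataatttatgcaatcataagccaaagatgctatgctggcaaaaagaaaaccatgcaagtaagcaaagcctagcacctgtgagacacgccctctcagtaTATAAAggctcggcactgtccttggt
Sprr1b: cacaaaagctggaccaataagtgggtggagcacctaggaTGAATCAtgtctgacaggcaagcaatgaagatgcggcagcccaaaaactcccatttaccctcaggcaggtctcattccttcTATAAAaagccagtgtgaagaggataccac
Krtap22-2: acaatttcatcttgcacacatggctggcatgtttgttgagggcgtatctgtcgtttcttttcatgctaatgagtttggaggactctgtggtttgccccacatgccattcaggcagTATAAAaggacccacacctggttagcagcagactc

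The TATA box match TATAAA begins 26 bases before the start in Krt10, 30 in Sprr1b and 35 in Krtap22-2. Over whole windows it was in 64.1% of member windows and 13.6% of all 32851 windows. Its share was 83.0% in Krtap windows (39 of 47) and 90.9% in Sprr windows (10 of 11), but 21.1% in Lce windows (4 of 19) and 16.7% in windows of suprabasal keratins, where Krt10 was the 1 of 6 that held it. Neither of the 2 basal keratin windows held it. The printed Krt10 promoter is therefore not typical of its list in this respect. The AP-1 sequence TGANTCA was in 9 of 11 Sprr windows, Sprr1b among them, and in 19.7% of member windows, against 7.81% of all windows. These matches describe letters in the windows, and were chosen with the gene lists known. Genes of these families are also neighbours: 49 of the 141 members with GENCODE coordinates lie on chromosome 11, 37 on chromosome 3, 24 on chromosome 15 and 22 on chromosome 16.

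Because 3′ tags are read, near-identical gene ends could share reads. Over the last 300 bases of transcripts, 4 of 139 members were at least 90% identical to another member, namely Lce3b with Lce3c and Lce1h with Lce1i, and the split of reads within these pairs is uncertain. Just under this cut were Lce1e with Lce1h at 88% and Lce1a1 with Lce1a2 at 83.3%. Krt6a and Krt6b were 59.7% identical there, and Krtap4-6 and Krtap4-9 56.7%. Members of unlike families also scored near these values, such as Krt10 with Krtap13 at 50.7%. Only members were compared, so ends shared with other genes were not looked for.

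Other epidermal genes that are not members also had medians below 0 in arthritis. In WT arthritis 69 of 70 tested had values below 0, with a median of -1.58. An unadjusted p under 0.05 was reached by 18, of which 17 were lower (all genes, either direction: 21.2%). Of the 70, 1 passed (all genes: 4.21%): Itgb4, the integrin of hemidesmosomes that anchors basal cells, at -1.12 (SE 0.30, limma adjusted p = 0.0412). This call was held in 13 of the 28 alternatives run, with adjusted p from 0.0120 to 0.205, the highest with sex as a term. By list, 0 of 11 adhesion genes, 1 of 8 basement membrane genes, 0 of 20 envelope enzymes and scaffolds, 0 of 10 barrier lipid genes, 0 of 11 keratinocyte transcription factors and 0 of 10 hair and nail regulators passed. In Sema3b-/- arthritis 64 of 70 were below 0 (median -1.07) and 0 passed with limma (all genes: 12.4%). Of the 70, 10 had an unadjusted p under 0.05 (all genes: 28.5%), so both shares were below those of all genes. None passed in the other comparisons (all genes 0.0145%, 0.0217% and 0.0%). There none had an unadjusted p under 0.05 (all genes 5.87%, 8.97% and 4.80%). In the authors' deposited tables, 0 of the 142 members had an adjusted p under 0.05 in each of the 4 comparisons between groups. The lowest was 0.0540, in Sema3b-/- arthritis against Sema3b-/- control. Of the 18585 genes in those deposited tables, the authors' values had 2.59% called in WT arthritis, 5.24% in Sema3b-/- arthritis, 0.0% between the control groups and 0.0108% between the arthritis groups.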

How the data were processed

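Total RNA of forepaws was barcoded and amplified by CEL-seq, which reads a tag at the 3′ end of each RNA; paired-end reads came from a NextSeq500, per the labels' protocols. BWA, DESeq2 1.32 and the build mm10 are named in the submitters' processing notes. The sources used here name no counting tool and do not say whether molecular barcodes were used. The deposited table holds a signal, a count divided by a size factor per library. The authors also deposited a log2 fold change, a p-value and an adjusted p-value per comparison. Whole reads were recovered for 100% of values within 0.02 of a read.

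limma 3.58.1 (trend, robust) was fitted to log2(normalized count + 1) over 4 group means and all 18 libraries, for 13809 genes with at least 10 in 4 or more libraries, with Benjamini-Hochberg adjustment over all of them. Fold changes on this scale understate those of low genes. edgeR 4.0.16 and DESeq2 1.42.0 were run on recovered reads as alternatives, and the fitting was tested on simulated data. Named members are the 3 most abundant per list and, per comparison, those called or otherwise the 3 with the lowest p. Others, such as those whose groups do not overlap, were named after their values were seen. Members and lists were chosen with earlier results of these data known. Alternatives covered scaling, pseudocount, filters, sex, replicate number, title prefix and left-out libraries. The fit with a skin term and its alternatives were added after seeing the data.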

Additional observations from a re-analysis of the deposited data

Results flagged for a closer look

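Of 164 sets of values (41 members and lists in each of 4 groups), 13 held a library far from the rest of its group by Dixon's criterion, which chance alone gives for about 1 in 20 groups. Sema3b-/- control replicate 4 was high in 7 of them: root sheath and companion keratins at 0.117% of normalized counts, Krt71 at 3414 normalized counts, Krt25 at 2734, Krt73 at 1175, Krt16 at 14547 and Sprr1a at 5718. The seventh was Krt15, a keratin of basal and follicle stem cells, at 517. In WT control, Krt15 was high in replicate 1 at 874, and replicate 2 was high in Lce RNA at 0.545% and in Lce1d at 4616. In WT arthritis, replicate 2 was high in Krt1 at 35696 and in Krt6b at 2245. In Sema3b-/- arthritis, replicate 3 was high in Sprr2h at 263.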

How the results depend on the processing

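Called members were few under every alternative. Of all genes, the main fit called 4.21% in WT arthritis and 12.4% in Sema3b-/- arthritis. DESeq2 called 9.26% and 16.1% of all genes in these comparisons, and the fit with the skin term 2.58% and 10.7%. For the remaining alternatives below, the share over all genes is not given, so their counts cannot be read as a result about members. Against 0 members in WT arthritis, 1 was called by DESeq2, by the TMM-scaled fit and with a pseudocount of 10; the range over left-out libraries was 0 to 1. Against 0 in Sema3b-/- arthritis, DESeq2 called 7, the TMM-scaled fit 1 and a pseudocount of 10 also 1, with 0 to 1 over left-out libraries. The other 3 comparisons had 0 members in all alternatives run. With the skin term, a covariate over the 3 lists of adhesion, envelope enzyme and barrier lipid genes called 1 member in WT arthritis and 0 to 1 were called over left-out libraries, and in Sema3b-/- arthritis, against 4, the 3-list covariate and a pseudocount of 10 called 6 each, the replicate block 5, sex as a term 3, and 2 were called without the arthritis titles not beginning with Joint (3 to 5 over left-out libraries). Of other epidermal genes in WT arthritis, against 1, DESeq2 called 2, and 0 were called with no filter, with sex as a term, with the replicate block, without titles not beginning with Joint and without the 2 libraries lowest in skin RNA (0 to 6 over left-out libraries). In Sema3b-/- arthritis, against 0, DESeq2 called 4 and the fit with sex 1 (0 to 4 over left-out libraries). The difference in the hair to interfollicular ratio between control groups ran from -2.70 to -1.83 over left-out libraries. The cause of these moves was not tested.

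Replicate numbers did not pair the libraries, and that of Sema3b-/- control replicate 4 was assigned here, since its title repeats number 3. Same-numbered libraries had correlated deviations (r over 0.1) in 7 of 25 pairs, r ran from -0.66 to 0.41, and 3 of 18 libraries were closest to their own number. Leaving out that replicate, 6 of 22 pairs had r over 0.1. The replicate block gave 0 called members in each comparison, with a median of -1.98 in WT arthritis and -0.90 in Sema3b-/- arthritis. The 2 libraries with almost no skin RNA, and the low counts of Krt4, Krt8 and Sprr2k, limit what can be detected here.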
